A study of Mus musculus with 8 samples.

Results

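The comparison described here is that of Cdc73-floxed with Cdc73 wild type mouse leukaemia cells after 48 h of 4-hydroxytamoxifen (4OHT). Its members are the 11030 of 23361 listed genes that reached 1 FPKM in either group. FPKM, fragments per kilobase of transcript scaled to the mapped fragments of the library, is a level that can be set side by side between genes of different length. The study sequenced poly(A) RNA from 8 libraries of established acute myeloid leukaemia lines of strain 129S6, derived from bone marrow and carrying the fusion oncogene MLL-AF9, in 4 groups of 2 biological duplicates. The floxed group here was Cdc73fl/fl CreERT2 and the control Cdc73 +/+ CreERT2. Both lines grew in IMDM with serum and interleukin IL-3, and both received 7.5 nM 4OHT, which activates the Cre recombinase, so the control had the drug and the recombinase as well. The 24 h groups, which had the same genotypes and dose, are used only to set the 48 h values in time. Floxed and wild type cells are separate lines, and libraries without 4OHT were not analysed here. What differed between the lines from the outset and what followed excision of Cdc73 therefore cannot be told apart.

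Cdc73 encodes parafibromin, a subunit of the PAF1 complex. The complex travels with RNA polymerase II, aids elongation of the transcript, and is required for ubiquitination of histone H2B and the histone methylation that depends on it. MLL fusion proteins bind the complex through the part of MLL that they retain, and the complex is known for its part in keeping the HOXA genes and MEIS1 on in this kind of leukaemia, whose cells resemble granulocyte and monocyte progenitors.

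Each group has 1 pooled FPKM value in the deposited table, so the levels printed are values of the authors without a spread between duplicates. A gene is called higher or lower where the q-value in the authors' deposited table is under 0.05, with the direction of its FPKM values. Cdc73, which checks the labels, stood at 26.9 FPKM in wild type and 5.45 FPKM in floxed cells at 48 h, which is 20.3% of the wild type level, and had been 26.2 and 5.96 FPKM at 24 h. The gene, on the minus strand at chr1:143598800-143702893 (mm10), shares its locus entry with another gene. Which part of the gene the floxed allele loses is not stated in the labels, and the value covers the whole gene, so it does not give the share of cells with excision. Markers of the labelled cell type were present in both groups: Mpo, the myeloperoxidase of granulocyte progenitors, stood at 1368 and 1011 FPKM in wild type and floxed cells. All 11 erythroid markers in the table stayed under 1 FPKM, and 4 of them were listed at 0 in both groups.

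Most genes differed between the lines at 48 h, more of them downward, but most called log2 changes of over 2 in size were upward. Of 10954 genes with a tested q, 2825 were called higher (25.8%) and 3416 lower (31.2%). On the log2(FPKM + 1) scale, on which all log2 changes are given, floxed over wild type, the median of all 11030 genes was -0.06 and the median absolute change was 0.48. The middle of the distribution ran from -1.13 at the 5th percentile to 1.44 at the 95th. At least 2-fold, 1081 genes were higher (9.80%) and 823 lower (7.46%), but with floxed values rescaled to the same sum as wild type these were 957 and 1023, so the direction of this split depends on the scaling. Between log2 changes of 2 and 3 in size there were 171 called higher genes and 29 called lower, and past 3 there were 43 and 6. Conversely, 2053 called genes differed by less than 1.5-fold, so a call alone says little of size. The smallest q in the authors' deposited table, 0.000165, was held by 3497 genes, and it ranks none of them. Just inside and just outside the threshold, q in the authors' deposited table was 0.04998 and 0.0501.

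**Figure D1:**
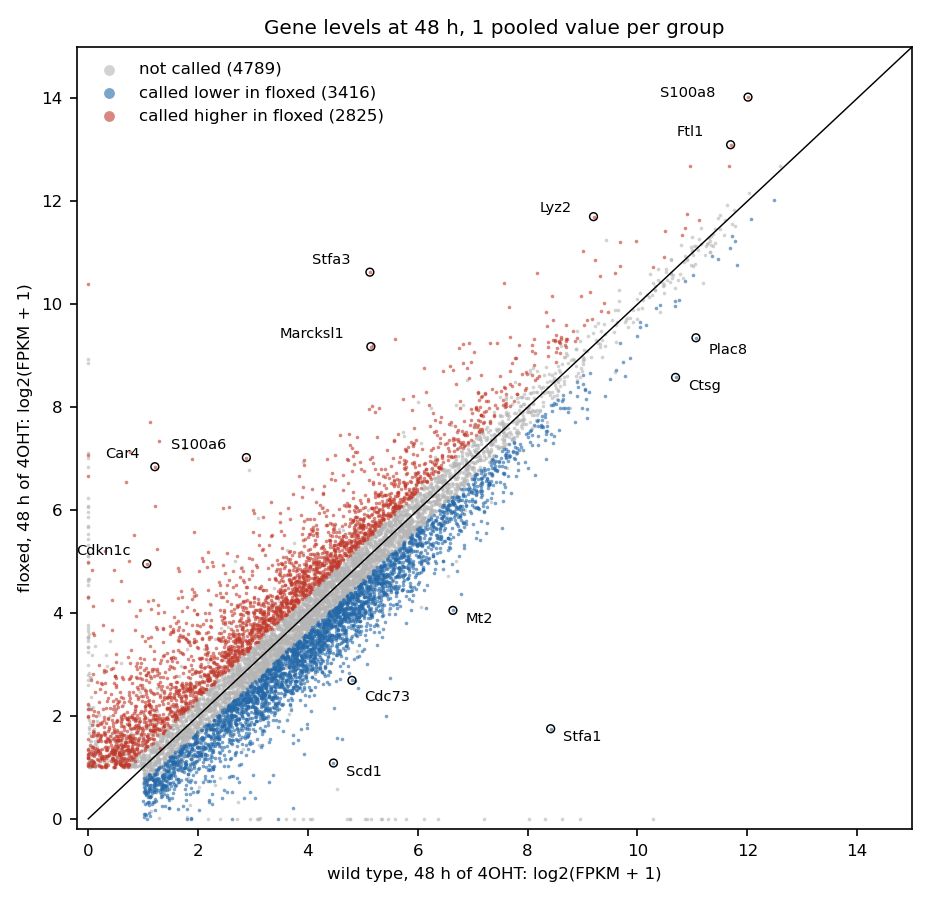
Each point is 1 of the 11030 genes, with log2(FPKM + 1) in wild type cells on the x axis and in floxed cells on the y axis after 48 h of 4OHT; red marks the 2825 genes called higher in floxed cells, blue the 3416 called lower and grey the others. The line is equality, and the points farthest above it outnumber those farthest below it, with 43 called genes past a log2 change of 3 above and 6 below.

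The abundance that moved was concentrated in few genes on the upper side. Together the called higher genes gained 117720 FPKM, of which the 10 largest gains made up 30.9%, and the called lower genes together fell by 70487 FPKM, of which the 10 largest losses made up 16.8%. The sum over all genes was 653299 FPKM in wild type and 699193 FPKM in floxed cells. S100a8, a chain of the calcium-binding pair calprotectin, held the largest gain, from 4134 FPKM in wild type to 16678 FPKM in floxed cells. Ftl1, the light chain of the iron store ferritin, rose 2.65-fold, from 3318 FPKM in wild type to 8784 FPKM in floxed cells. Tmsb4x, the actin-sequestering thymosin, rose 2.03-fold, from 3261 FPKM in wild type to 6618 FPKM in floxed cells. Among the losses, Ctsg, the serine protease cathepsin G of primary granules, fell 4.34-fold, from 1656 FPKM in wild type to 381 FPKM in floxed cells. Plac8, a small cysteine-rich protein of myeloid cells, fell 3.29-fold, from 2142 FPKM in wild type to 651 FPKM in floxed cells. Eef1a1, which brings aminoacyl-tRNA to the ribosome, fell 1.37-fold, from 5708 FPKM in wild type to 4159.9 FPKM in floxed cells, a small ratio on a very abundant RNA.

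Several genes of unrelated roles differed by over 10-fold between groups that both reached 1 FPKM. Car4, a carbonic anhydrase, rose 86.4-fold, from 1.32 FPKM in wild type to 114 FPKM in floxed cells. Chi3l1, a secreted chitinase-like protein, rose 47.01-fold, from 2.69 FPKM in wild type to 127 FPKM in floxed cells. Marcksl1, an actin-binding substrate of protein kinase C, stood at 32.3 and 48.1 FPKM in the wild type and floxed groups at 24 h and at 34.4 and 578 FPKM at 48 h, 16.8-fold. Thbs1, the adhesive secreted protein thrombospondin, rose 16.8-fold, from 35.2 FPKM in wild type to 592 FPKM in floxed cells. Il18, a cytokine that is matured by inflammasomes, rose 26.97-fold, from 1.38 FPKM in wild type to 37.1 FPKM in floxed cells. In the other direction, Ramp1, which partners calcitonin-family receptors, fell 12.2-fold, from 23.5 FPKM in wild type to 1.93 FPKM in floxed cells. Clec11a, a secreted growth factor of haematopoietic cells, fell 11.2-fold, from 22.2 FPKM in wild type to 1.97 FPKM in floxed cells. Mt2, a zinc-binding metallothionein, fell by less than 10-fold, namely 6.35-fold, from 98.8 FPKM in wild type to 15.6 FPKM in floxed cells. The stefin genes sit in a cluster of near-identical copies on chromosome 16, so the values of Stfa1 (342 and 2.36 FPKM), Stfa3 (33.96 and 1577 FPKM) and BC100530 (817 and 2374 FPKM) are uncertain as to which copy each read came from.

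Among genes of 1 FPKM or more in either group, the letters of a TATA box stood before the start in a larger share of those that rose than of those that fell. The promoter sequences below are shown because they carry that box at the usual place in genes called and at least 2-fold changed. They are the 100 bases before the start of each gene, 5′ to 3′ on the gene's strand, from RefSeq (GRCm38.p6, the assembly behind mm10), and capitals mark the letters TATAAA. The first 5 are of genes that rose: S100a4 (chr3:90603670-90603769, plus strand), Fos (chr12:85473790-85473889, plus), Tnf (chr17:35202008-35202107, minus), Anxa1 (chr19:20390672-20390771, minus) and Tubb2a (chr13:34078009-34078108, minus). The other 3 are of genes that fell: Retsat (chr6:72598502-72598601, plus), Igfbp4 (chr11:99041144-99041243, plus) and Dio2 (chr12:90739039-90739138, minus).
S100a4: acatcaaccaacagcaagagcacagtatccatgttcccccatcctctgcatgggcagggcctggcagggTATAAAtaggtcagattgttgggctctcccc
Fos: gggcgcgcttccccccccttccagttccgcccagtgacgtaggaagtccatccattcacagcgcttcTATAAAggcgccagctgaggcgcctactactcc
Tnf: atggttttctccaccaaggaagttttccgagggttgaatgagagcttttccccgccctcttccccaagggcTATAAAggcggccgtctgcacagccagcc
Anxa1: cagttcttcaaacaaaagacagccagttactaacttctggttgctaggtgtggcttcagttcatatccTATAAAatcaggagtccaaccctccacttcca
Tubb2a: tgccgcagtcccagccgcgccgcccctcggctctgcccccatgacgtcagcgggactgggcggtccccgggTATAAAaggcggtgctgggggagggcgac
Retsat: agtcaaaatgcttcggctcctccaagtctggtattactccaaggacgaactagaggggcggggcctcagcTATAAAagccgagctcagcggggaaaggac
Igfbp4: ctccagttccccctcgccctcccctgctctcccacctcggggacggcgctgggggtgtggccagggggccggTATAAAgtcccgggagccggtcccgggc
Dio2: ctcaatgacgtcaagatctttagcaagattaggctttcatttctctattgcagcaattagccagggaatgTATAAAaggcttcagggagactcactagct

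The box began between 28 and 33 bases before the start in all 8. S100a4, a calcium-binding protein of motile cells, rose 14.4-fold, from 4.49 FPKM in wild type to 64.8 FPKM in floxed cells. Fos, a subunit of the AP-1 transcription factor, rose 10.7-fold, from 1.41 FPKM in wild type to 15.1 FPKM in floxed cells. Tnf, the inflammatory cytokine, rose 7.72-fold, from 2.72 FPKM in wild type to 20.99 FPKM in floxed cells. Anxa1, a phospholipid-binding protein of phagocytes, rose 4.54-fold, from 37.4 FPKM in wild type to 169.8 FPKM in floxed cells. Tubb2a, a beta-tubulin, rose 6.100-fold, from 1.85 FPKM in wild type to 11.3 FPKM in floxed cells. In the other direction, Igfbp4, which binds insulin-like growth factors, fell 3.73-fold, from 183 FPKM in wild type to 49.2 FPKM in floxed cells. Retsat, which saturates retinol, fell 4.33-fold, from 69.9 FPKM in wild type to 16.2 FPKM in floxed cells, and Dio2, a thyroid hormone deiodinase, fell 4.86-fold, from 8.81 FPKM in wild type to 1.81 FPKM in floxed cells.

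A single RefSeq promoter entry was found for 6507 of the 11030 genes. On the gene's strand, TATAAA beginning 40 to 20 bases before the start was found in 4.70% of 553 genes called and at least 2-fold higher, in 2% of 450 called and at least 2-fold lower, in 0.938% of 2772 not called and in 1.28% of all 6507. Among all 22862 genes with 1 entry, expressed or not, the share was 2.42%. Of the 83 expressed genes that have it, 39 were called higher (46.99%) and 18 lower (21.7%), against 25.7% and 31.7% of the 6507, and their median log2 change was 0.46 against -0.07 for the 6507. The filter of 1 FPKM in either group favours genes that are high in 1 group. The calls and median of genes with the box were not computed without it, so how far the filter sets these shares is not known. Over both strands and 250 bases before the start, TATAAA was found in 12.1% of those that rose at least 2-fold, 5.78% of those that fell and 6.01% of all 6507, against 13.6% of the 22862. The letters TGANTCA of an AP-1 site stood in 6.33% of the 553 and 4.22% of the 450, against 4.00% of the 6507 and 6.96% of the 22862. The C/EBP letters TTGCGCA stood in 1.63% and 3.56%, against 3.49% and 1.77%, and the E2F letters TTCGCGC in 1.27% and 2%, against 2.75% and 1.27%. The letters CCAAT stood in 38.7% of the 553 and 43.8% of the 450, against 38.3% of the 6507 and 34.7% of the 22862. For the GC box GGGCGG the 4 shares were 55.5%, 57.1%, 61.5% and 32.4%. For the E-box CACGTG they were 7.78%, 7.78%, 8.90% and 5.92%. For TGACGTC, the core of the cAMP response element, they were 5.61%, 6.67%, 5.41% and 2.88%. All 7 of these were searched on both strands over the same 250 bases, and overlaps between motifs were not removed. These are matches of letters and not tests of binding, and no test of a difference between the shares was made.

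Long genes were lower more often than short ones at 48 h. Among the 9868 protein-coding genes with a GENCODE M21 gene model, 481 genes under 3 kb from start to end had a median log2 change of 0.13, with 33.9% called higher and 21.4% lower. The median was 0.04 for 1951 genes of 3 to 10 kb, -0.07 for 3411 of 10 to 30 kb, -0.14 for 2935 of 30 to 100 kb and -0.17 for 965 of 100 to 300 kb. The 125 genes of 300 kb or more had a median of -0.33, with 10.4% called higher and 50.4% lower. At 24 h the medians of the same genes were -0.01 in the shortest bin, -0.02 from 10 to 30 kb and -0.11 in the longest. Expression level moves with length, since the median level was 21.9 FPKM in the shortest bin and 5.02 FPKM in the longest. Among genes with a mean of 10 FPKM or more the medians still ran from 0.08 in the shortest bin (301 genes) to -0.29 in the longest (30 genes). Genes of a single exon, 173 in all, had a median of 0.42, with 45.7% called higher and 16.8% lower. The median length was 13.7 kb for 828 genes called and at least 2-fold higher, 26.9 kb for 702 at least 2-fold lower and 23.0 kb for all 9868.

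**Figure D2:**
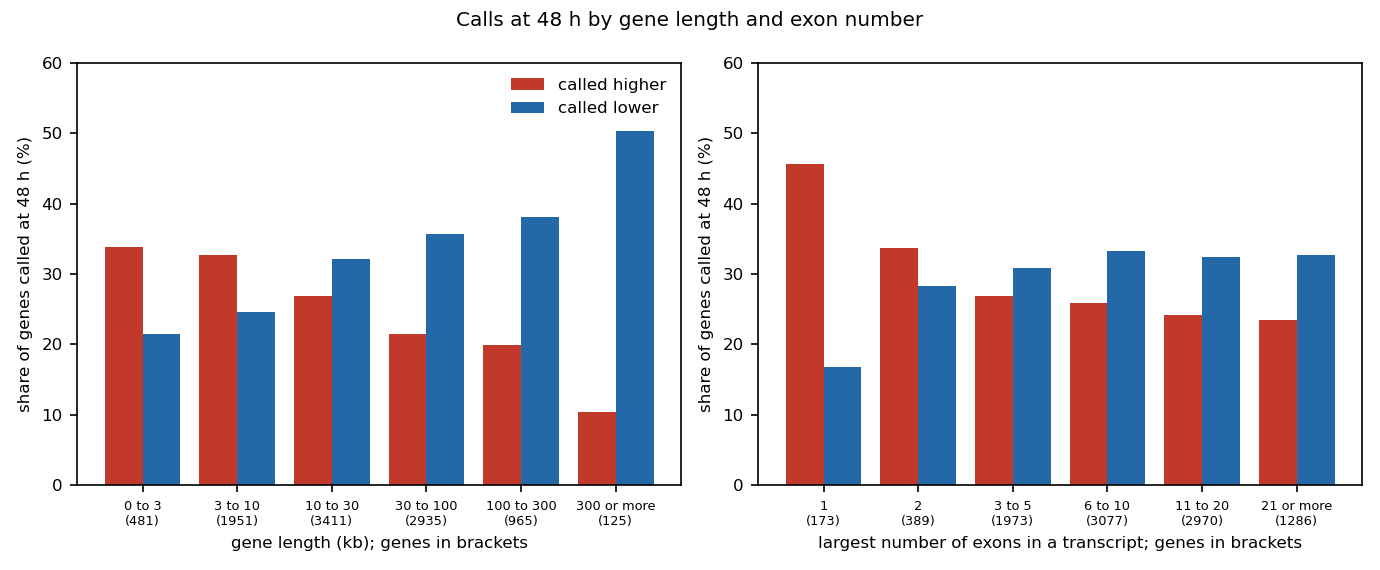
The bars give the share of protein-coding genes called higher (red) or lower (blue) in floxed cells at 48 h, in percent, by gene length in kb on the left and by the largest number of exons in a transcript on the right, with the number of genes in brackets. From the shortest to the longest genes the share called higher went from 33.9% to 10.4% and the share called lower from 21.4% to 50.4%.

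The gene groups that follow are lists of genes by role. They are described by how many members were called and by their median log2 change, beside 25.8% called higher, 31.2% called lower and a median of -0.06 over all genes. No test was made of a list. Where some listed genes stayed under 1 FPKM in both groups, a count over the rest favours genes that are high in 1 group, so the median without that filter is given beside each such count of calls.

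**Figure D3:**
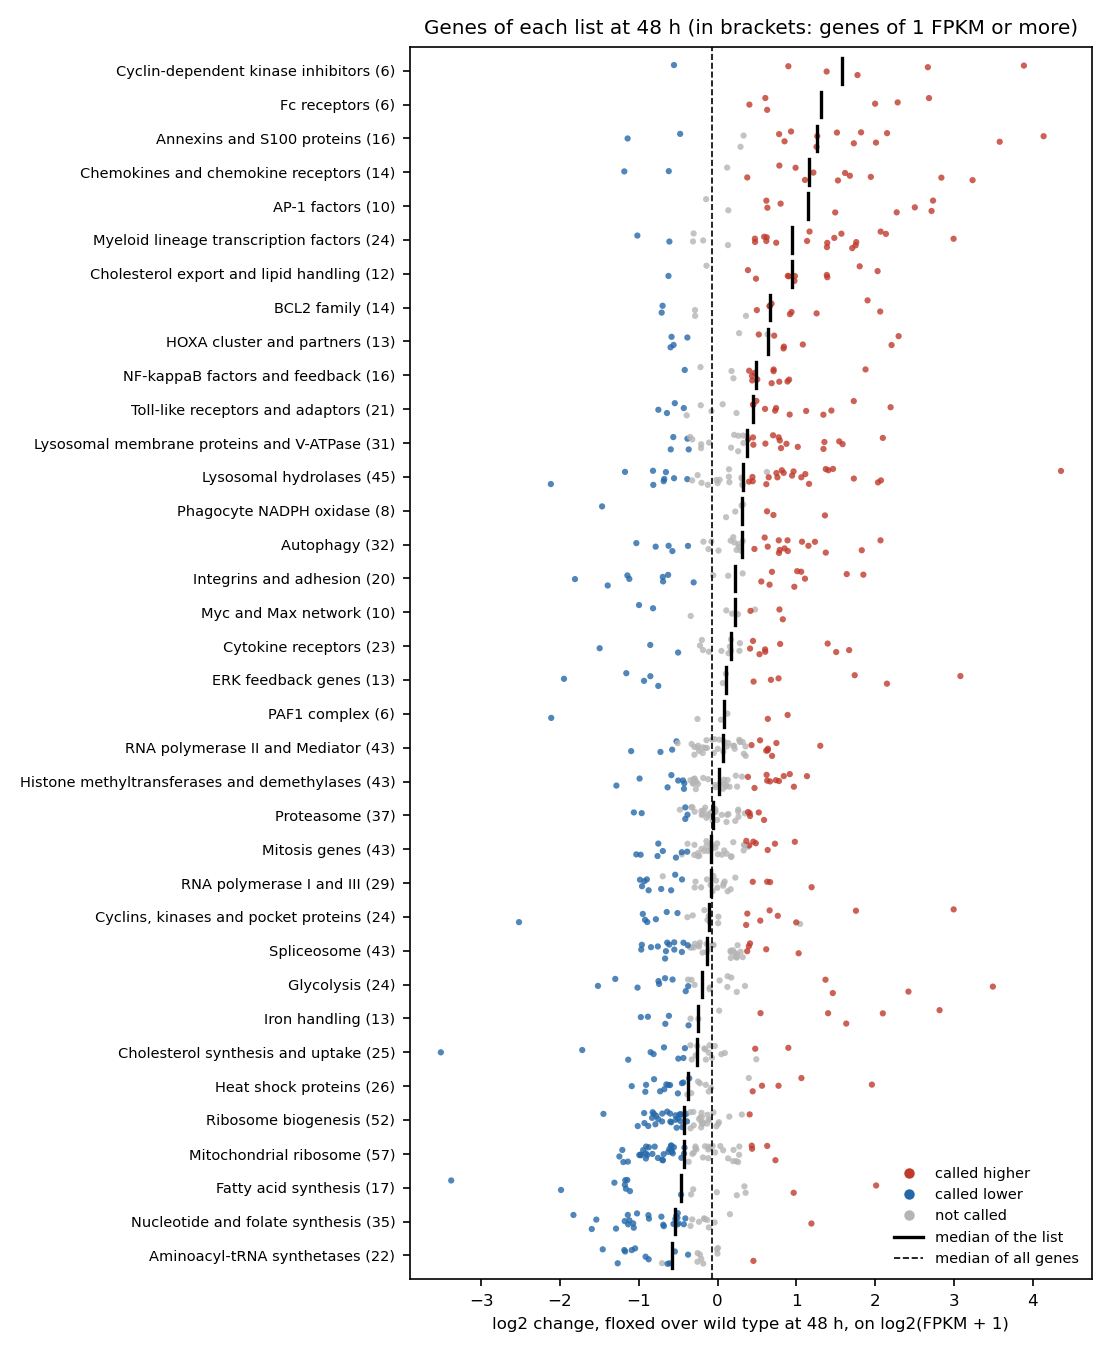
Each point is 1 gene of 1 FPKM or more in either group, placed by its log2 change at 48 h (floxed over wild type, on log2(FPKM + 1)), with the gene lists as rows and the number of such genes in brackets; red and blue mark called genes, black bars the list medians and the dashed line the median of all genes. Lists of signalling, lineage and lysosomal genes lie to the right of the dashed line, up to 1.58 for the cyclin-dependent kinase inhibitors, and lists of biosynthesis genes lie to the left, down to -0.57 for the aminoacyl-tRNA synthetases.

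Of the 5 other PAF1 complex subunits, 2 were called higher and none lower. Paf1 rose 1.88-fold, from 34.3 FPKM in wild type to 64.5 FPKM in floxed cells, and Leo1 rose 1.59-fold, from 18.5 FPKM in wild type to 29.4 FPKM in floxed cells. Ctr9, the scaffold of the complex, stood at 31.6 and 32.6 FPKM in wild type and floxed cells, with no call. The subunits of RNA polymerase II and Mediator, the bridge from activators to the polymerase, had 8 of 43 called higher (18.6%) and 4 lower, both below the shares of all genes, with a median of 0.07 that was -0.02 with the groups rescaled to the same sum. Med10 rose 2.51-fold, from 40.04 FPKM in wild type to 100.4 FPKM in floxed cells, while the catalytic subunit Polr2a stood at 47.1 and 60.6 FPKM, with no call. Histone methyltransferases and demethylases had 11 of 43 called higher (25.6%) and 8 lower, where the first share is that of all genes, and their median of 0.02 was -0.07 after the same rescaling. Dot1l, the methyltransferase of histone H3 that MLL fusions recruit, fell 1.61-fold, from 14.7 FPKM in wild type to 9.11 FPKM in floxed cells. Ash2l, a core subunit of the MLL-type complexes, fell 2.47-fold, from 94.3 FPKM in wild type to 38.1 FPKM in floxed cells. Kdm6b, a demethylase induced in activated macrophages, rose 2.396-fold, from 6.05 FPKM in wild type to 14.50 FPKM in floxed cells.

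Several HOXA genes were higher in floxed cells, while 2 of their cofactors were lower. Of 15 HOXA genes and partners, 13 reached 1 FPKM, and 7 were called higher and 4 lower, with a median of 0.64 (0.52 without the filter). Hoxa9, the main HOX gene of MLL-AF9 leukaemia, rose 1.45-fold, from 36.1 FPKM in wild type to 52.4 FPKM in floxed cells, and Hoxa10 rose 1.66-fold, from 60.4 FPKM in wild type to 100.2 FPKM in floxed cells. Hoxa5 rose 5.102-fold, from 7.65 FPKM in wild type to 39.1 FPKM in floxed cells, and Hoxa6 rose 5.78-fold, from 4.59 FPKM in wild type to 26.5 FPKM in floxed cells, but these last 2 share their locus entries with other genes and are uncertain. Meis1, the cofactor of HOX proteins, fell 1.56-fold, from 13.2 FPKM in wild type to 8.51 FPKM in floxed cells, and Pbx3, another cofactor, fell 1.52-fold, from 15.9 FPKM in wild type to 10.5 FPKM in floxed cells.

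Transcription factors of myeloid lineages were mostly higher. Of 29 listed, 24 reached 1 FPKM and 18 of these were called higher and 2 lower, with a median of 0.94 (0.62 without the filter). Cebpe, which drives the late stages of granulocyte formation, rose 4.45-fold, from 70.3 FPKM in wild type to 313 FPKM in floxed cells. Id2, an inhibitor of E proteins, rose 9.96-fold, from 3.54 FPKM in wild type to 35.3 FPKM in floxed cells, and Id1 rose 2.65-fold, from 84.3 FPKM in wild type to 223 FPKM in floxed cells. Irf5, a factor of inflammatory macrophages, rose 3.76-fold, from 6.17 FPKM in wild type to 23.2 FPKM in floxed cells, and Klf4, a monocyte factor, rose 4.01-fold, from 3.09 FPKM in wild type to 12.4 FPKM in floxed cells. Sfpi1, which encodes the myeloid factor PU.1, rose 1.39-fold, from 194 FPKM in wild type to 271 FPKM in floxed cells. Cebpa, the factor of granulocyte commitment, stood at 74.3 and 59.7 FPKM in wild type and floxed cells, with no call. Among the members called lower were Myb, a progenitor factor, which fell 1.53-fold, from 128 FPKM in wild type to 83.3 FPKM in floxed cells, and Fli1, an ETS factor, which fell 2.08-fold, from 41.4 FPKM in wild type to 19.95 FPKM in floxed cells.

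AP-1 and NF-kappaB genes were mostly called higher, and feedback genes of the ERK pathway were divided. Of 13 AP-1 genes, 10 reached 1 FPKM, with 8 called higher, none lower and a median of 1.15 (0.63 without the filter). Besides Fos, shown above with its promoter, Junb rose 5.03-fold, from 20.7 FPKM in wild type to 104 FPKM in floxed cells, and Jun rose 8.17-fold, from 3.501 FPKM in wild type to 28.6 FPKM in floxed cells. Batf stood at 29.3 and 32.3 FPKM in wild type and floxed cells, with no call. Of 16 NF-kappaB genes that reached 1 FPKM, of 17 listed, 12 were called higher and 1 lower, with a median of 0.49 (0.51 without the filter). Nfkbia, the inhibitor that NF-kappaB itself induces, rose 3.83-fold, from 17.7 FPKM in wild type to 67.8 FPKM in floxed cells, but shares its locus entry. Rela rose 1.66-fold, from 26.4 FPKM in wild type to 43.9 FPKM in floxed cells, and Nfkb1 fell 1.35-fold, from 42.5 FPKM in wild type to 31.6 FPKM in floxed cells. Among 13 ERK feedback genes of 1 FPKM or more, of 15 listed, 6 were called higher and 5 lower, with a median of 0.11 (0.07 without the filter). Ier3, an early response gene, rose 4.82-fold, from 9.100 FPKM in wild type to 43.9 FPKM in floxed cells, and Dusp6, a phosphatase of ERK, rose 1.81-fold, from 6.85 FPKM in wild type to 12.4 FPKM in floxed cells. The inhibitor of RAF activation Spred1 fell 4.73-fold, from 15.5 FPKM in wild type to 3.28 FPKM in floxed cells, and its relative Spred2 fell 2.48-fold, from 12.2 FPKM in wild type to 4.91 FPKM in floxed cells.

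Receptors by which phagocytes sense microbes and antibody were called higher more often than lower. Of 24 Toll-like receptors and adaptors, 21 reached 1 FPKM, with 12 called higher, 4 lower and a median of 0.45 (0.35 without the filter). Cd14, the coreceptor for endotoxin, rose 4.77-fold, from 20.3 FPKM in wild type to 96.7 FPKM in floxed cells. Tlr2, which binds bacterial lipoproteins, rose 2.86-fold, from 12.4 FPKM in wild type to 35.5 FPKM in floxed cells, and the adaptor Myd88 rose 2.21-fold, from 36.5 FPKM in wild type to 80.8 FPKM in floxed cells. Cd180, a relative of the endotoxin receptor, fell 1.66-fold, from 9.69 FPKM in wild type to 5.85 FPKM in floxed cells. All 6 Fc receptor genes that reached 1 FPKM, of 8 listed, were called higher, with a median of 1.32 (0.72 without the filter). Fcer1g, the signalling chain that several Fc receptors share, rose 4.902-fold, from 202 FPKM in wild type to 991 FPKM in floxed cells, and Fcgr4 rose 7.11-fold, from 8.05 FPKM in wild type to 57.2 FPKM in floxed cells.

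Adhesion molecules changed in both directions. Of 24 listed, 20 reached 1 FPKM, and 9 were called higher and 8 lower, with a median of 0.23 (0.21 without the filter). Itgam, the CD11b chain of mature myeloid cells, rose 2.18-fold, from 45.8 FPKM in wild type to 100.1 FPKM in floxed cells, and Itgal rose 3.27-fold, from 13.8 FPKM in wild type to 45.1 FPKM in floxed cells. Their shared beta chain Itgb2 rose 1.62-fold, from 157 FPKM in wild type to 254 FPKM in floxed cells. In contrast Itga6, a laminin receptor chain, fell 3.74-fold, from 39.6 FPKM in wild type to 10.6 FPKM in floxed cells, and Icam2 fell 2.75-fold, from 37.2 FPKM in wild type to 13.5 FPKM in floxed cells. Cd47, the surface signal that restrains phagocytosis, fell 1.62-fold, from 222 FPKM in wild type to 137 FPKM in floxed cells.

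Among chemokines and their receptors, only 14 of 29 listed genes reached 1 FPKM, 11 of them called higher and 2 lower, and the median of 1.16 was 0.20 without the filter. Ccl3 and Ccl4, neighbouring chemokines for monocytes and T cells, rose 3.96-fold and 13.4-fold. Ccl3 went from 27.01 FPKM in wild type to 107 FPKM in floxed cells, and Ccl4 from 2.11 FPKM in wild type to 28.4 FPKM in floxed cells. Cxcr4, which holds cells in the marrow, rose 2.17-fold, from 96.1 FPKM in wild type to 209 FPKM in floxed cells, and Cxcr2, which draws neutrophils out of it, rose 4.202-fold, from 1.84 FPKM in wild type to 7.72 FPKM in floxed cells. Ccr2, the receptor of inflammatory monocytes, fell 1.55-fold, from 52.1 FPKM in wild type to 33.6 FPKM in floxed cells. Among cytokine receptors, 23 of 30 listed reached 1 FPKM, with 9 called higher, 3 lower and a median of 0.17 (0.16 without the filter). The beta chains of the IL-3 receptor in the mouse, Csf2rb and Csf2rb2, rose 2.68-fold and 3.58-fold. Csf2rb went from 41.1 FPKM in wild type to 109.9 FPKM in floxed cells, and Csf2rb2 from 5.48 FPKM in wild type to 19.6 FPKM in floxed cells. These 2 genes are close copies and reads may have been split between them. The alpha chain Il3ra stood at 19.96 and 16.96 FPKM in wild type and floxed cells, with no call, and Ifngr1, the ligand-binding chain of the interferon gamma receptor, fell 1.82-fold, from 189 FPKM in wild type to 104 FPKM in floxed cells.

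Genes of the lysosome and of its acidification were higher more often than lower. Of 45 lysosomal hydrolases, all at 1 FPKM or more, 21 were called higher (46.7%) and 9 lower, with a median of 0.32. Ctsd, the aspartic protease cathepsin D, rose 4.11-fold, from 511 FPKM in wild type to 2102 FPKM in floxed cells. Ctsl, a cysteine protease, rose 3.39-fold, from 31.5 FPKM in wild type to 107 FPKM in floxed cells, and Ctss, the cathepsin of antigen-presenting cells, rose 2.81-fold, from 39.4 FPKM in wild type to 111 FPKM in floxed cells. Smpd1, the acid sphingomyelinase, rose 2.803-fold, from 11.02 FPKM in wild type to 30.9 FPKM in floxed cells. Not all hydrolases followed: Manba, a beta-mannosidase, fell 2.33-fold, from 39.97 FPKM in wild type to 17.1 FPKM in floxed cells, and Asah1, the acid ceramidase, fell 1.61-fold, from 87.2 FPKM in wild type to 54.2 FPKM in floxed cells. The list also holds cathepsin G, a granule protease whose fall is given above. Hexa stood at 233 and 258 FPKM in wild type and floxed cells, with no call. Of 31 membrane proteins and proton pump subunits, 15 were called higher (48.4%) and 4 lower, with a median of 0.37. Atp6ap1, an accessory subunit of the pump, rose 2.56-fold, from 109 FPKM in wild type to 278 FPKM in floxed cells, and Lamp1, the main membrane glycoprotein, rose 1.53-fold, from 371 FPKM in wild type to 566 FPKM in floxed cells. Atp6v0a2 fell 1.51-fold, from 22.8 FPKM in wild type to 15.1 FPKM in floxed cells.

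Autophagy genes had 15 of 32 called higher (46.9%) and 5 lower, with a median of 0.31. The members that coat the autophagosome membrane stood highest. Map1lc3b rose 3.59-fold, from 73.2 FPKM in wild type to 263 FPKM in floxed cells, and Gabarap rose 2.23-fold, from 209 FPKM in wild type to 466 FPKM in floxed cells. Ulk1, the kinase that starts the process, rose 2.801-fold, from 7.67 FPKM in wild type to 21.5 FPKM in floxed cells, and the cargo receptor Sqstm1 rose 1.86-fold, from 83.98 FPKM in wild type to 156 FPKM in floxed cells. Atg12, a ubiquitin-like protein of the conjugation machinery, fell 1.499-fold, from 63.9 FPKM in wild type to 42.6 FPKM in floxed cells, and Atg7, the enzyme that activates it, stood at 20.97 and 21.2 FPKM, with no call.

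The phagocyte NADPH oxidase, which makes superoxide, had 3 of 8 listed genes called higher and 1 lower. Both membrane subunits rose: Cybb 2.600-fold, from 60.1 FPKM in wild type to 156 FPKM in floxed cells, and Cyba 1.55-fold, from 671 FPKM in wild type to 1038 FPKM in floxed cells. Ncf1, a cytosolic subunit, stood at 177 and 191 FPKM, with no call. The member called lower, Hvcn1, fell 2.93-fold, from 31.8 FPKM in wild type to 10.9 FPKM in floxed cells, but shares its locus entry. Annexins and S100 proteins, which bind membranes and partners in answer to calcium, had 12 of 16 called higher and 2 lower, with a median of 1.26. Besides S100a4 and Anxa1, shown above with their promoters, S100a6 rose 20.3-fold, from 6.36 FPKM in wild type to 129 FPKM in floxed cells, and S100a11 rose 2.39-fold, from 999 FPKM in wild type to 2390.0 FPKM in floxed cells. Anxa3 fell 2.22-fold, from 191 FPKM in wild type to 86.1 FPKM in floxed cells. Iron genes were divided, with 5 of 13 called higher and 5 lower, of 14 listed, and a median of -0.24 (-0.11 without the filter). Hmox1, which breaks down haem, rose 7.52-fold, from 13.3 FPKM in wild type to 100.2 FPKM in floxed cells, and the ferritin heavy chain Fth1 rose 3.11-fold, from 595 FPKM in wild type to 1849 FPKM in floxed cells, as the light chain did. Tfrc, the receptor for iron uptake, fell 1.54-fold, from 212 FPKM in wild type to 138 FPKM in floxed cells.

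Markers of mature cell types moved with these groups. Of 14 neutrophil and granule markers, 10 were called higher and 2 lower. Their summed level was 14113 FPKM in wild type and 29392 FPKM in floxed cells. S100a8 and S100a9 make up most of the floxed sum, and without them the sum fell. The 2 called lower were Mpo and Elane, the latter from 3587 FPKM in wild type to 1745 FPKM in floxed cells. Prtn3 stood at 2332 and 1362 FPKM, with no call, and Elane and Prtn3 share their locus entries. Of 13 monocyte and macrophage markers, 8 reached 1 FPKM, 7 called higher and 1 lower, with a median of 1.16 (0.60 without the filter) and sums of 726 and 3657 FPKM. Lyz2 makes up most of that sum, and the complement genes C1qa, C1qb and C1qc of tissue macrophages stayed under 1 FPKM. The 11 eosinophil markers summed to 15.1 FPKM in wild type and 265 FPKM in floxed cells, with a median of 1.99 over the whole list. Of the 8 that reached 1 FPKM, 5 did so in floxed cells alone, so a count of calls among them would be one-sided. The receptors Ccr3 and Il5ra, which define eosinophils, stayed under 1 FPKM. Stem and progenitor markers had 4 called lower and 1 higher of 6 that reached 1 FPKM, of 10 listed. Their median was -0.53 (-0.46 without the filter) and their sums were 54.1 and 46.3 FPKM. Ly6a, the member called higher, went from 10.8 FPKM in wild type to 25.6 FPKM in floxed cells and makes up most of the floxed sum. Kit, which had the lowest log2 change, went from 17.1 FPKM in wild type to 5.42 FPKM in floxed cells.

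The 8 megakaryocyte markers summed to 2.47 and 17.1 FPKM, with a median of 0.94 over the whole list. The 5 that reached 1 FPKM did so in floxed cells alone, and most of the floxed sum was Pf4, at 10.8 FPKM. The other lists, of basophil and mast, B, T and NK, dendritic, and fibroblast and endothelial cells, had at most 3 genes at 1 FPKM. Of the basophil and mast cell markers, 6 were listed at 0 in both groups. The sums were 48.5 and 37.5 FPKM for basophil and mast cells, mostly Hdc, and 53.7 and 37.8 FPKM for dendritic cells, mostly Bst2. Hdc was called lower, but the other basophil and mast cell markers that reached 1 FPKM, Mcpt8 and Ms4a2, were called higher. Mcpt8 went from 3.52 FPKM in wild type to 5.92 FPKM in floxed cells, and Ms4a2 reached 1 FPKM in floxed cells alone. The fall of that sum is therefore the fall of Hdc and not of the list. In these bulk samples fewer cells of a type and less RNA per cell cannot be told apart, and the part of cell composition in the lineage, receptor and lysosomal results was not tested.

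Inhibitors of the cell cycle were mostly called higher. Of 7 inhibitors of cyclin-dependent kinases, 6 reached 1 FPKM, with 5 called higher, 1 lower and a median of 1.58 (1.39 without the filter). Cdkn1a, the inhibitor that p53 induces, rose 6.52-fold, from 36.5 FPKM in wild type to 238 FPKM in floxed cells. Cdkn1c rose 27.5-fold, from 1.09 FPKM in wild type to 30.03 FPKM in floxed cells, from a level near the 1 FPKM minimum. Cdkn2d rose 3.56-fold, from 18.2 FPKM in wild type to 64.8 FPKM in floxed cells, and Cdkn1b rose 2.82-fold, from 7.797 FPKM in wild type to 21.99 FPKM in floxed cells. Cdkn2a, the locus of the tumour suppressors p16 and ARF, fell 1.52-fold, from 12.3 FPKM in wild type to 8.07 FPKM in floxed cells. Of 24 cyclins, kinases, pocket proteins and E2F factors, 8 were called higher and 7 lower, with a median of -0.10. Cdk4 fell 1.94-fold, from 344 FPKM in wild type to 178 FPKM in floxed cells, and the related kinase Cdk6 fell 1.752-fold, from 39.7 FPKM in wild type to 22.6 FPKM in floxed cells. E2f1 fell 1.98-fold, from 21.2 FPKM in wild type to 10.7 FPKM in floxed cells, but E2f2 rose 8.99-fold, from 7.03 FPKM in wild type to 63.1 FPKM in floxed cells. The D cyclins were divided. Ccnd3 rose 3.41-fold, from 102 FPKM in wild type to 348 FPKM in floxed cells, and Ccnd1 was also called higher. Ccnd2 stood at 9.297 and 0.794 FPKM in wild type and floxed cells and was called lower. Both Ccnd3 and Ccnd2 share their locus entries.

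Mitosis genes differed little. Of 43, 7 were called higher and 8 lower, both below the shares of all genes, and their median of -0.08 was close to that of all genes. Plk1, a mitotic kinase, stood at 76.1 and 67.5 FPKM in wild type and floxed cells, and Top2a, a topoisomerase of dividing cells, at 119 and 99.8 FPKM, neither with a call. Birc5, the survivin subunit of the chromosomal passenger complex, rose 1.56-fold, from 131 FPKM in wild type to 204 FPKM in floxed cells, and Ect2, which directs cytokinesis, fell 2.11-fold, from 32.2 FPKM in wild type to 15.3 FPKM in floxed cells.

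The BCL2 family genes called higher included members that promote cell death and members that oppose it. Of 19 listed, 14 reached 1 FPKM, with 9 called higher, 2 lower and a median of 0.66 (0.43 without the filter). Among promoters of death, Pmaip1, which encodes NOXA, rose 4.36-fold, from 18.2 FPKM in wild type to 79.6 FPKM in floxed cells, and Bcl2l11, which encodes BIM, rose 2.68-fold, from 4.91 FPKM in wild type to 13.1 FPKM in floxed cells. Bax, which permeabilises the mitochondrial membrane, rose 1.61-fold, from 141 FPKM in wild type to 228 FPKM in floxed cells. Among the protective members, Mcl1 rose 1.93-fold, from 74.4 FPKM in wild type to 144 FPKM in floxed cells, and Bcl2l1 rose 1.96-fold, from 13.9 FPKM in wild type to 27.2 FPKM in floxed cells. Bcl2 itself was low, at 1.18 and 0.336 FPKM in wild type and floxed cells, and was called lower. The other member called lower was Bcl2a1a, which like Bcl2 is a protective member.

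**Figure D4:**
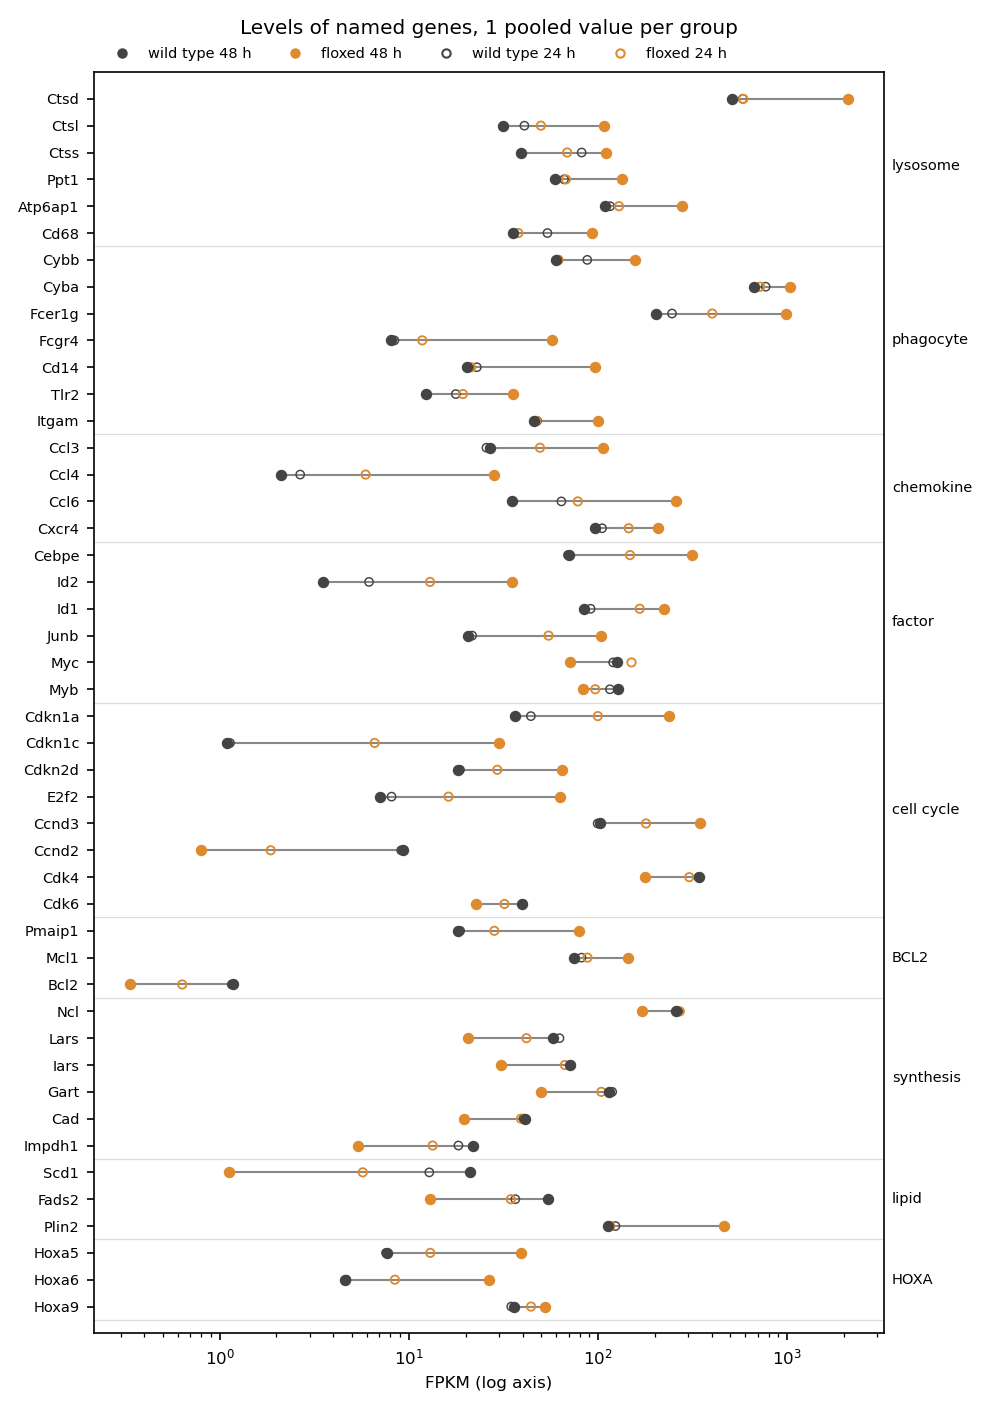
Levels of named genes in FPKM on a log axis, 1 pooled value per group, with filled points for 48 h and open points for 24 h, dark for wild type and orange for floxed cells; the line joins the 48 h values. The gap between the lines is wider at 48 h than at 24 h for many of them, as for Cdkn1a, at 44.2 and 99.9 FPKM in the wild type and floxed groups at 24 h and 36.5 and 238 FPKM at 48 h.

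Genes of protein synthesis and growth were called lower more often than higher. Myc, which drives many of them, fell 1.77-fold, from 126 FPKM in wild type to 71.2 FPKM in floxed cells, after 120.3 and 150.5 FPKM at 24 h. Of 10 genes of the Myc and Max network at 1 FPKM or more, of 12 listed, 3 were called higher and 2 lower, with a median of 0.22 (0.15 without the filter). The Myc antagonists Mxd1 and Mxd4 rose 1.803-fold and 1.81-fold. Of 52 genes of ribosome biogenesis, 28 were called lower (53.8%) and 1 higher, with a median of -0.42. Fbl, the methyltransferase fibrillarin, fell 1.42-fold, from 250.4 FPKM in wild type to 177 FPKM in floxed cells, and Gar1, a protein of the pseudouridylation particle, fell 1.86-fold, from 73.6 FPKM in wild type to 39.6 FPKM in floxed cells. Wdr75, of the small subunit processome, fell 2.08-fold, from 36.1 FPKM in wild type to 17.4 FPKM in floxed cells. The member called higher was Mphosph10, which rose 1.33-fold, from 49.2 FPKM in wild type to 65.7 FPKM in floxed cells. Subunits and factors of RNA polymerases I and III had 9 of 29 called lower (31.03%) and 4 higher, with a median of -0.09, so the share called lower was that of all genes. Polr1a, the largest subunit of polymerase I, fell 1.99-fold, from 21.2 FPKM in wild type to 10.7 FPKM in floxed cells, and Polr1d, a subunit of both polymerases, rose 1.37-fold, from 222 FPKM in wild type to 303 FPKM in floxed cells.

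Aminoacyl-tRNA synthetases, which charge tRNAs, had 12 of 22 called lower (54.5%) and 1 higher, and their median of -0.57 was the lowest of the pathway lists. Lars fell 2.83-fold, from 58.1 FPKM in wild type to 20.5 FPKM in floxed cells, and Iars fell 2.31-fold, from 70.9 FPKM in wild type to 30.7 FPKM in floxed cells. Qars rose 1.38-fold, from 78.3 FPKM in wild type to 108 FPKM in floxed cells, and Hars stood at 67.7 and 67.98 FPKM, with no call. Of 57 mitochondrial ribosomal proteins, 30 were called lower (52.6%) and 4 higher, with a median of -0.42. Mrps18b fell 2.33-fold, from 80.8 FPKM in wild type to 34.7 FPKM in floxed cells, and Mrpl28 rose 1.56-fold, from 70.4 FPKM in wild type to 109.6 FPKM in floxed cells.

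Enzymes that make nucleotides and carry one-carbon units had 25 of 35 called lower (71.4%) and 1 higher, with a median of -0.54. Gart, a purine enzyme of several activities, fell 2.29-fold, from 114 FPKM in wild type to 49.8 FPKM in floxed cells, and Cad, which starts pyrimidine synthesis, fell 2.08-fold, from 41.04 FPKM in wild type to 19.7 FPKM in floxed cells. Impdh1, of guanine nucleotide synthesis, fell 4.02-fold, from 21.8 FPKM in wild type to 5.43 FPKM in floxed cells, while its isozyme Impdh2 stood at 233 and 260.1 FPKM, with no call. Slc19a1, the folate carrier, fell 3.16-fold, from 46.9 FPKM in wild type to 14.8 FPKM in floxed cells. The member called higher, Aprt, salvages adenine and rose 2.29-fold, from 278 FPKM in wild type to 637 FPKM in floxed cells.

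Heat shock and chaperonin genes were called lower more often than higher. Of 26 heat shock and chaperonin genes at 1 FPKM or more, of 27 listed, 13 were called lower and 5 higher, with a median of -0.37 (-0.36 without the filter). Hspd1, the mitochondrial chaperonin, fell 1.88-fold, from 532 FPKM in wild type to 283 FPKM in floxed cells, and Cct3, a subunit of the cytosolic chaperonin, fell 1.89-fold, from 289.6 FPKM in wild type to 153 FPKM in floxed cells. Hsp90ab1, the constitutive HSP90, fell 1.54-fold, from 1645 FPKM in wild type to 1067 FPKM in floxed cells, while the inducible Hsp90aa1 stood at 814 and 1072 FPKM, with no call. The cochaperone Dnajb1 rose 1.496-fold, from 28.99 FPKM in wild type to 43.4 FPKM in floxed cells. Dnaja1, Dnajb4 and the inducible Hspa1a and Hspa1b were also called higher. Hspa1a and Hspa1b reached 1 FPKM in floxed cells alone, and the highest log2 change of the list was 1.96. Spliceosome genes had 13 of 43 called lower (30.2%) and 5 higher, with a median of -0.14, both close to those of all genes. Srsf5 rose 2.05-fold, from 137 FPKM in wild type to 281 FPKM in floxed cells, and Snrpg fell 1.798-fold, from 849 FPKM in wild type to 472 FPKM in floxed cells. The proteasome had 5 of 37 called higher and 5 lower, fewer than the shares of all genes. The lower ones included the immunoproteasome subunits Psmb9, from 27.5 FPKM in wild type to 12.6 FPKM in floxed cells, and Psmb10, from 49.6 FPKM in wild type to 24.95 FPKM in floxed cells, while the constitutive Psmb6 stood at 155 and 181 FPKM, with no call.

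Fatty acid synthesis genes were called lower more often than higher, and genes of lipid export and storage mostly higher. Of 17 fatty acid synthesis genes at 1 FPKM or more, of 20 listed, 9 were called lower and 2 higher, with a median of -0.46 (-0.32 without the filter). Scd1, a stearoyl-CoA desaturase, fell 18.8-fold, from 21.1 FPKM in wild type to 1.12 FPKM in floxed cells, and Fads2, a desaturase of polyunsaturated fatty acids, fell 4.19-fold, from 54.5 FPKM in wild type to 12.99 FPKM in floxed cells. Acaca, which makes malonyl-CoA, fell 2.63-fold, from 26.4 FPKM in wild type to 10.05 FPKM in floxed cells, while Acly, which makes acetyl-CoA from citrate, stood at 161 and 160.0 FPKM, with no call. Of 25 genes of cholesterol synthesis and uptake, 9 were called lower (36.00%) and 2 higher, with a median of -0.26, which is a share not far from the 31.2% of all genes. Nsdhl, an enzyme of the later steps, fell 3.55-fold, from 31.6 FPKM in wild type to 8.91 FPKM in floxed cells. Idi1, the isopentenyl isomerase, rose 1.87-fold, from 114 FPKM in wild type to 213 FPKM in floxed cells. Of 12 genes of cholesterol export and lipid handling at 1 FPKM or more, of 14 listed, 10 were called higher and 1 lower, with a median of 0.94 (0.90 without the filter). Plin2, the coat of lipid droplets, rose 4.12-fold, from 113 FPKM in wild type to 465 FPKM in floxed cells. Apoe rose 4.97-fold, from 1.69 FPKM in wild type to 8.39 FPKM in floxed cells, and Abcg1, a cholesterol exporter, rose 1.99-fold, from 6.35 FPKM in wild type to 12.6 FPKM in floxed cells. Scarb1, a receptor for high-density lipoprotein, fell 1.55-fold, from 141 FPKM in wild type to 91.1 FPKM in floxed cells.

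Glycolysis showed no common direction. Of 24 genes at 1 FPKM or more, of 25 listed, 4 were called higher and 9 lower, and the median of -0.20 was -0.10 without the filter and 0.01 without genes that share a locus entry. Ldha, the lactate dehydrogenase subunit of proliferating cells, fell 1.59-fold, from 1729.7 FPKM in wild type to 1089.6 FPKM in floxed cells, while Ldhb rose 9.28-fold, from 1.12 FPKM in wild type to 10.4 FPKM in floxed cells. The glucose transporters went opposite ways, with Slc2a3 rising 2.93-fold, from 10.4 FPKM in wild type to 30.3 FPKM in floxed cells, and Slc2a1 falling 1.300-fold, from 64.9 FPKM in wild type to 49.9 FPKM in floxed cells. Gapdh stood at 520.2 and 486 FPKM in wild type and floxed cells, with no call.

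Most 24 h differences were still there at 48 h, and most 48 h differences were not yet called at 24 h. The calls at 24 h covered 13.1% of tested genes on the higher side and 14.4% on the lower. Of the 2825 genes called higher at 48 h, 1113 (39.4%) had been called higher at 24 h, which is 76.8% of the 1449 called higher at 24 h among the same 11030 genes. Of the 3416 called lower, 1217 (35.6%) had been called lower at 24 h, which is 79.0% of 1541. Among the 1113 the median log2 change was 0.55 at 24 h and 0.94 at 48 h, and 919 were larger at 48 h. Among the 1217 it was -0.51 and -0.94, and 1040 were larger in size at 48 h. The difference between the times was not tested, since each group has 1 pooled value.

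The lists differed in when they moved away from 0. The inhibitors of cyclin-dependent kinases, the Fc receptors and the lineage factors already had medians of 0.48, 0.41 and 0.38 at 24 h. Of the 6 inhibitors, 3 were called higher and 2 lower at 24 h, so they did not move together. The 6 Fc receptor genes had 4 called higher and 1 lower, and the 24 lineage factors 14 and 4. Lysosomal hydrolases had a median of -0.01 at 24 h, with 5 called higher and 8 lower, against 21 and 9 at 48 h. Ctsd, for example, stood at 583 and 587 FPKM at 24 h in the 2 groups. Cholesterol export and lipid handling genes had a median of -0.05 at 24 h, and Plin2 stood at 124 and 116 FPKM. Ribosome biogenesis had a median of 0.02 at 24 h, with 5 called lower against 28 at 48 h. Heat shock genes had 8 called higher and 0 lower at 24 h, against 5 and 13 at 48 h.

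**Figure D5:**
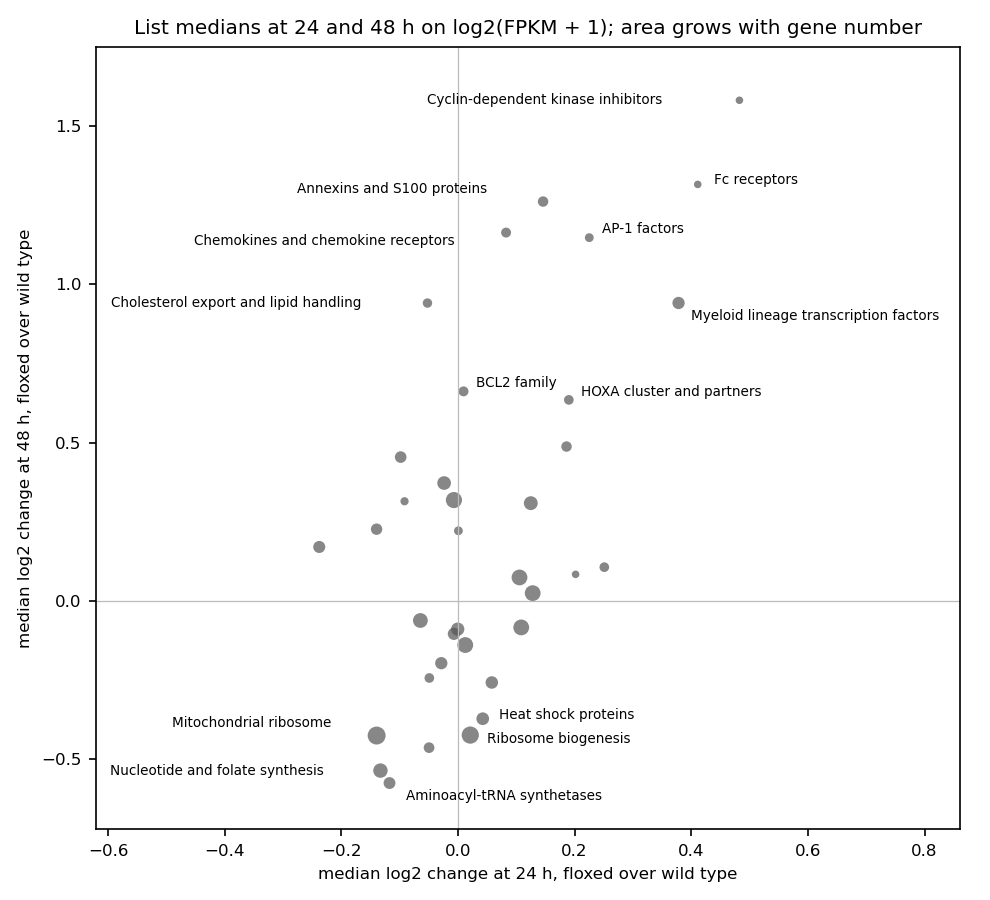
Each point is 1 of the 36 pathway lists, with the median log2 change (floxed over wild type, on log2(FPKM + 1)) at 24 h on the x axis and at 48 h on the y axis, and an area that grows with the number of genes; the grey lines mark 0. Medians at 24 h lie between -0.24 and 0.48, those at 48 h between -0.57 and 1.58, and several lists, such as ribosome biogenesis at 0.02 and -0.42, lie near 0 at 24 h only.

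A small set of genes was called in opposite directions at the 2 times. Called lower at 24 h and higher at 48 h were 112 genes. S100a9, the partner of S100a8, stood at 2574 and 1166 FPKM in the wild type and floxed groups at 24 h and at 1993 and 6618 FPKM at 48 h. Lcn2, the siderophore-binding lipocalin, stood at 117 and 80.5 FPKM and then at 94.7 and 445 FPKM. Spp1, the secreted protein osteopontin, stood at 264 and 92.8 FPKM and then at 132 and 255 FPKM, where the wild type level was itself lower than at 24 h. Isg15, an interferon-induced ubiquitin-like protein, stood at 7.67 and 0.831 FPKM and then at 2.02 and 5.86 FPKM. In all 4 of these genes the wild type level moved between the times as well as the floxed level. Called higher at 24 h and lower at 48 h were 18 genes, among them Mpo, at 1145 and 1986 FPKM at 24 h and 1368 and 1011 FPKM at 48 h. Chac1, a glutathione-degrading enzyme of the stress response, stood at 6.19 and 8.899 FPKM and then at 8.79 and 4.16 FPKM. Etv5, an ETS factor induced by ERK, stood at 3.02 and 4.000 FPKM and then at 3.38 and 1.601 FPKM, and Hsph1, a large heat shock protein, at 40.6 and 66.3 FPKM and then at 58.5 and 45.4 FPKM.

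Small RNAs are measured poorly by poly(A) libraries and by length scaling, and 155 genes annotated as such were among the 11030. Of these, 8 were called higher and 0 lower, where 25.8% and 31.2% of all genes were. Snord104, a C/D box snoRNA, stood at 347 and 1141 FPKM. Snord37, which shares its locus entry with another gene, was listed at 0 in wild type and at 1336 FPKM in floxed cells.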

How the data were processed

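Poly(A) RNA of 4 libraries at 48 h, 2 floxed and 2 wild type, was compared. The build mm10 and the tools Cufflinks 2.1, Cuffdiff and Bowtie2 are named, without their roles, per the submitters' processing notes. The labels state neither strandedness nor annotation, trimming or depth. The authors deposited, per the file headers, 1 FPKM value per gene and group, the q-value of floxed against wild type and the fold at each time. The last fold column repeats the 24 h name and was not used for values. For 10932 of the 10935 genes whose 48 h values are both above 0, it matches their FPKM ratio to 0.1%.

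FPKM is scaled to length and library, so it cannot show whether cells held more or less RNA in total. Genes of 1 FPKM or more in either 48 h group were kept (11030), and 27 names turned into date numbers were left out. With 1 value per group no test, error or replicate check of a gene could be made. A call is the authors' deposited q under 0.05, and the labels call the duplicates biological without naming separate cultures. Log2 changes are on log2(FPKM + 1) and understate the change of low genes. Folds are ratios of the deposited FPKM, given where both groups reach 1 FPKM. Genes were matched to GENCODE M21 by symbol and locus (10325 matches), and 2204 that share a locus entry are uncertain.

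The 36 pathway lists and 11 marker lists and the comparison itself were chosen with earlier results of these data known. Of the list genes, 1044 matched by symbol, 8 through RefSeq synonyms and 6 not at all. Named genes are Cdc73, those with the largest log2 changes or FPKM differences among called genes, and the list members that changed most or stood highest. Further list members, the genes of the promoter set, those called in opposite directions and the snoRNAs were chosen after their values were seen. Some genes that these choices cover are not reported here. The calculations were tested on simulated data and run in Python 3.11.15 with numpy 2.4.6, pandas 2.3.3 and matplotlib 3.10.9. Alternatives were other thresholds, filters, pseudocounts and scalings.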

Additional observations from a re-analysis of the deposited data

How the results depend on the processing

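The counts of called genes, 2825 higher and 3416 lower, were within 1.5 times of these values under every alternative run: 2316 and 2765 at q under 0.01 in the authors' deposited table, 2095 and 2767 at 5 FPKM or more, 3261 and 3581 with no filter, and 2472 and 2928 without genes that share a locus entry. Genes at least 2-fold higher and lower numbered 1081 and 823, and 539 and 328 with a pseudocount of 5. Rescaling floxed values by 0.934 to the same sum gave 957 and 1023, and by 1.029 to the same upper quartile 1144 and 739, so the split between directions depends on the scaling. The median of all genes was -0.06, and 0 with no filter on low values, -0.154 with the same sum and -0.0282 with the same upper quartile. Of 288 list medians over all alternatives, 283 kept their sign. The other 5 were those of the PAF1 complex (-0.00959), RNA polymerase II and Mediator (-0.0175) and histone methyltransferases and demethylases (-0.0676) with the same sum, the last of these at 5 FPKM or more (-0.0250), and glycolysis without genes that share a locus entry (0.0134). Of 1086 log2 changes of 543 called list genes under the same sum and a pseudocount of 0.1, 0 reversed and 25 moved by over 1.5 times. No paired analysis was possible because the table holds 1 pooled value per group, and leaving out a replicate was not run for the same reason. Depth per library is unknown, so no detection limit was computed, and values near 1 FPKM are the least certain.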
